A study of Homo sapiens with 38 samples.

Results

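The genes described here are the GATA factors GATA2, GATA3, GATA4, GATA5 and GATA6 and the lung lineage factor NKX2-1, 6 of 19962 protein-coding genes on the autosomes and chromosome X. They were chosen by name. Binding at them was read from CUT&RUN, in which an antibody tethers a nuclease to a chromatin protein and the DNA fragments cut free around it are sequenced. Parental NCI-H661 (H661) is a line of lung large cell carcinoma with endogenous DPPA2 and DPPA4, and it was profiled with antibodies to DPPA2, to the N-terminus of DPPA4 (DPPA4n), to the centre of DPPA4 (DPPA4c) and to DPPA4 (ab154642). The shDPPA4 and shDPPA2+4 lines are H661 in which doxycycline switches on hairpin RNAs that target DPPA4 alone or DPPA2 together with DPPA4, and each is a bulk sorted population, not 1 clone. They were profiled after 7 days of 2 µg/mL doxycycline (DPPA4n and RING1B) and after 7 days of water (DPPA4n, RING1B, PCGF1, MTF2 and EP300), and carried the hairpins in both arms. NCI-H1299 (H1299) is a lung cancer line of the non-small cell type in which doxycycline switches on DPPA2 with a Flag tag and DPPA4 with a V5 tag, and all of its libraries came from cells with 7 days of 2 µg/mL doxycycline, so the introduced proteins have no arm without doxycycline.

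GATA factors are zinc finger transcription factors that bind the DNA motif GATA and direct cell fate. GATA2 and GATA3 act in blood, GATA2 in stem and progenitor cells and GATA3 in T cells, and GATA3 also acts in mammary and urothelial epithelium. GATA4, GATA5 and GATA6 act in the heart and in endodermal organs, and GATA6 also in the developing lung. NKX2-1 is a homeodomain factor that specifies lung and thyroid epithelium and is a diagnostic marker of lung adenocarcinoma. In cells that do not use them, such developmental genes are typical targets of the Polycomb complexes, of which RING1B is the catalytic subunit of PRC1, PCGF1 a subunit of a variant PRC1, and MTF2 an accessory subunit of PRC2 that binds CpG-rich DNA. EP300 is a histone acetyltransferase found at active promoters and enhancers. DPPA2 and DPPA4 are SAP domain proteins of the early embryo.

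The sequences below are the 250 bases before the start sites that the results turn on, from the RefSeq promoter table (GRCh38.p14), 5′ to 3′ on the strand of the gene, with each CpG in capitals. The table was read for 4 of the 6 genes. No promoter of GATA5 was matched in it, and GATA4 was left out of this reading.
GATA2, canonical start, chr3:128493202-128493451, minus strand: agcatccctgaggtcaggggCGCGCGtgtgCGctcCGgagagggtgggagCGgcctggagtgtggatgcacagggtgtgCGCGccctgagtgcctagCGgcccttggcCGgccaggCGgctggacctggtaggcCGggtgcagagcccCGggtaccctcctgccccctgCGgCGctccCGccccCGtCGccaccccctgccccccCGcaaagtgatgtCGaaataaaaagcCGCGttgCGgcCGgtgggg
GATA2, downstream start, chr3:128488531-128488780, minus strand: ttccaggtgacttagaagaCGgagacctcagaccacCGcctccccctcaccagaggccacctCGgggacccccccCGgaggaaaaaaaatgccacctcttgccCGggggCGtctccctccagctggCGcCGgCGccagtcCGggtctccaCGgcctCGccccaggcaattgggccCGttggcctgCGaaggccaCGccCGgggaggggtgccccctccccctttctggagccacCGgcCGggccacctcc
GATA3, canonical start, chr10:8054438-8054687, plus strand: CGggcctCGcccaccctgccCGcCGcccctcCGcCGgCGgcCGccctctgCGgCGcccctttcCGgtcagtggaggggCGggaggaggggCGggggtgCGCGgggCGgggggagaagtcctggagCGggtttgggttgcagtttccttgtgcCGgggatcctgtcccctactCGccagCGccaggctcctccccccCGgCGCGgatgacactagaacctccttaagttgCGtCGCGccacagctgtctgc
GATA6, canonical start, chr18:22169339-22169588, plus strand: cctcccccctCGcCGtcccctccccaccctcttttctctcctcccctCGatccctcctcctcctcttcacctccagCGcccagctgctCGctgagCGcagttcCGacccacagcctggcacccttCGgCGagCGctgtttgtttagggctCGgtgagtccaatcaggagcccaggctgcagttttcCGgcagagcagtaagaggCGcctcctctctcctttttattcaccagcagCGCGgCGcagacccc
NKX2-1, canonical start, chr14:36520233-36520482, minus strand: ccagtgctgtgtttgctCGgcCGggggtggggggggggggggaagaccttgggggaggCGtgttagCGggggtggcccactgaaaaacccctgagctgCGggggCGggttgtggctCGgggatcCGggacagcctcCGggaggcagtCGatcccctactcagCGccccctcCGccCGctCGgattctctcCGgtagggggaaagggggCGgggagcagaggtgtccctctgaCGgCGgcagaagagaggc
They hold 24 CpGs (GATA2, canonical), 18 (GATA2, downstream), 26 (GATA3), 16 (GATA6) and 18 (NKX2-1), against a median of 11 over 35116 RefSeq promoters. Neither GATAA nor its reverse complement TTATC occurs in any of the 5, and 20.4% of all promoters of the table hold one of them. Of the windows before other RefSeq starts of these genes, which are not shown, that of NKX2-1 676 bp and that of GATA3 5769 bp downstream of the canonical start held 1 each. Over TSS ± 500 bp the CpG observed/expected ratio ran from 0.559 at NKX2-1 and 0.660 at GATA4 to 0.726 at GATA2, 0.803 at GATA6, 0.822 at GATA5 and 0.855 at GATA3.

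Of 38 libraries, 30 had lists of enriched regions and the other 8 were IgG controls. Kept EPIC2 domains numbered 4904 (Flag monoclonal antibody, H1299 replicate 2) to 105640 per library and held 48262 to 6850681 reads. H661 lines had 1 library per antibody and arm, so their differences have no replicate check and no p-value, and the intervals given for them cover counting error only. The lists hold no expression values, so that the identity of the cells and the knockdown itself could not be checked in them. A promoter was the canonical transcription start site (TSS) ± 1500 bp, and it carried a protein where a kept region touched that window. Coverage is the percent of TSS ± 10 kb that lay inside kept EPIC2 domains.

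In parental H661 cells DPPA2 and DPPA4 both lay at the promoters of all 6 genes. By MACS2, 6 of 6 promoters carried a DPPA2 peak and a DPPA4n peak, against 39.2% of all promoters. The ab154642 antibody also gave a peak at 6 of 6, against 50.6% of all promoters. The central-region antibody gave a peak at 0 of 6, against 5.47% of all promoters. In EPIC2 domains, that antibody touched the promoters of GATA5 and NKX2-1, against 22.5% of all promoters.

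NKX2-1 had the broadest binding. Its DPPA2 peak ran over 11482 bp (chr14:36512207-36523688, hg38), from upstream of the TSS across the whole gene, with 15.0-fold enrichment over IgG and its summit at -638 bp from the TSS. DPPA4n gave a peak of 4971 bp there (chr14:36516554-36521524, 7.67-fold), with its summit at -672 bp. Both summits lay in the overlapping antisense lncRNA NKX2-1-AS1 and in SFTA3, so regions at this locus cannot be assigned to NKX2-1 alone. EPIC2 domains covered 80.8% of the NKX2-1 window for DPPA2, 71.3% for DPPA4n and 83.8% for ab154642, against medians of 2.5%, 2.5% and 3.0% over all genes. The central-region antibody covered 42.8% of it, against a median of 0%.

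GATA2 and GATA5 came next in coverage. At GATA2, DPPA2 covered 60.5% of the window and DPPA4n 34.0%, in separate peaks on each side of the TSS. The DPPA2 peak over the TSS had 10.8-fold enrichment (chr3:128491413-128494506) and its summit in intron 1. A stronger one of 15.9-fold had its summit 5415 bp downstream, also in intron 1 (chr3:128486022-128491129), where DPPA4n had 14.6-fold with its summit 5053 bp downstream (chr3:128487755-128489330). A DPPA2 peak upstream of GATA2, with its summit at -4186 bp (chr3:128496325-128497849), also had 15.9-fold. The DPPA4n peak nearest the GATA2 TSS had 4.24-fold, so that for both proteins the highest values at GATA2 lay away from the canonical start. For DPPA2 and DPPA4n the summits nearest the TSS, and the DPPA2 summit at -4186 bp, lay in the overlapping lncRNA GATA2-AS1. Those peaks cannot be assigned to GATA2 alone, whereas the summits 5415 bp and 5053 bp downstream lay in no other gene. At GATA5, DPPA2 covered 45.0% and DPPA4n 27.5%, and peaks of 10.6-fold and 11.6-fold over the TSS (chr20:62475062-62477010 and chr20:62475062-62476876) had their summits at -360 bp and -275 bp.

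The other 3 promoters carried narrower peaks. At GATA3, the DPPA2 peak (chr10:8053246-8054599, 6.79-fold) and the DPPA4n peak (chr10:8053586-8054601, 8.88-fold) ended just before the TSS, with summits at -211 bp and -162 bp. At GATA4, peaks of 8.49-fold for DPPA2 and 6.34-fold for DPPA4n lay over the TSS with summits in the 5′ UTR of exon 1, and smaller peaks of 5.10-fold and 5.08-fold lay 4807 bp and 4599 bp downstream, in intron 2 and in the coding part of exon 2. At GATA6, DPPA2 had 7.93-fold (chr18:22170145-22171214) and DPPA4n 5.08-fold (chr18:22170338-22170734), both with summits in intron 1, 1343 bp and 887 bp downstream. GATA6 had the lowest DPPA4n coverage of the 6, with 5.5%, against 7.5% at GATA4 and 9.5% at GATA3. Against other promoters with a DPPA2 peak, the highest DPPA2 fold at a promoter stood at percentile 95.4 for NKX2-1, 85.0 for GATA2, 83.8 for GATA5, 70.4 for GATA4, 65.3 for GATA6 and 51.1 for GATA3. NKX2-1 thus stood near the top of bound promoters by DPPA2 fold, while GATA3 stood near the middle. By DPPA4n fold the order was another one. Among promoters with a DPPA4n peak, GATA5 stood at percentile 84.3, GATA3 at 66.2, NKX2-1 at 55.5, GATA4 at 36.2, GATA6 at 15.3 and GATA2 at 4.9.

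**Figure D1:**
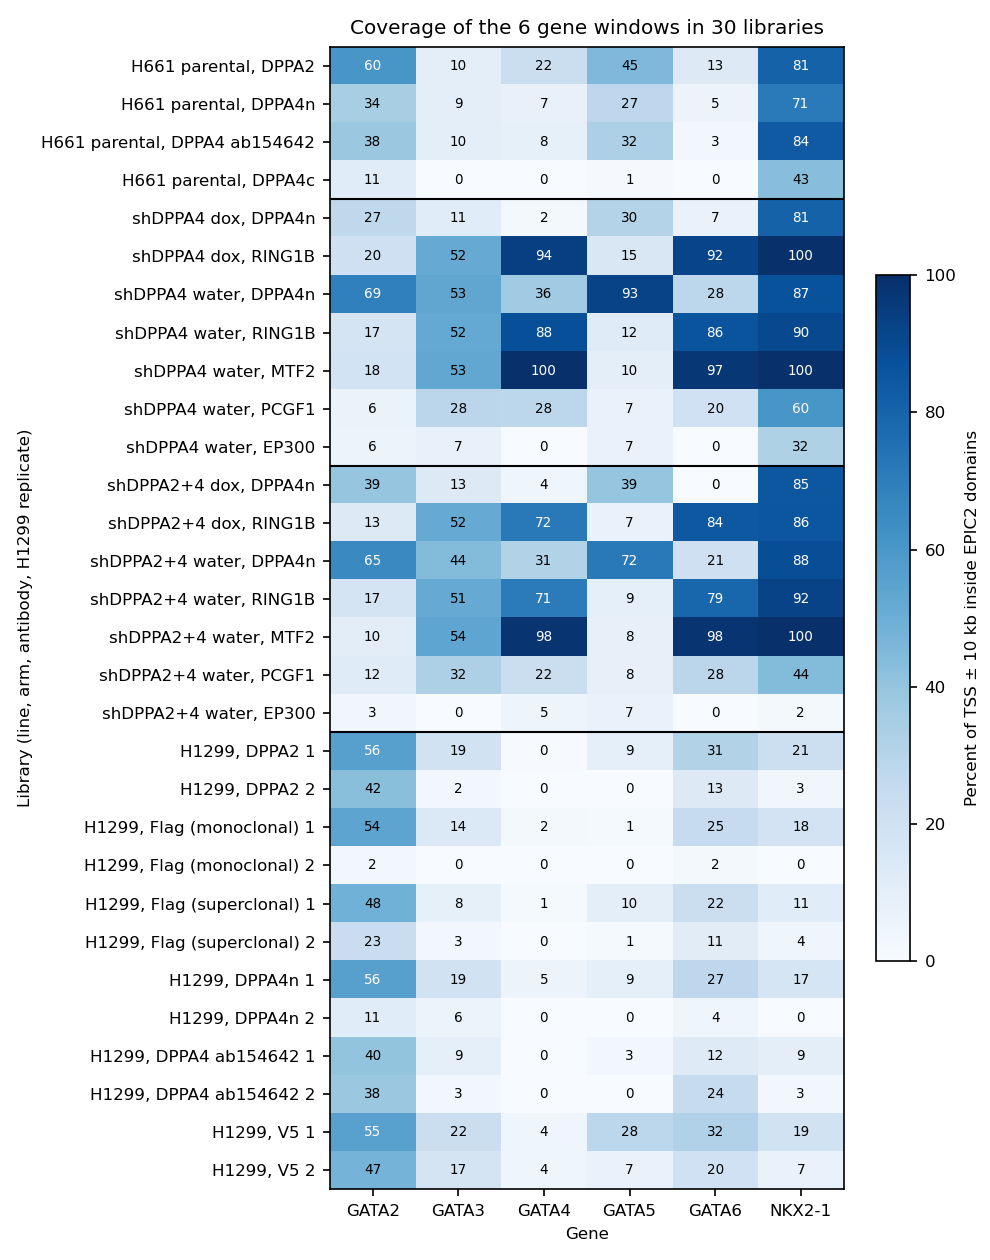
Percent of TSS ± 10 kb inside kept EPIC2 domains, for each gene (columns) in each of the 30 libraries (rows, with lines between the cell lines). Darker cells mean more coverage. NKX2-1 was above 70% for DPPA2, DPPA4n and ab154642 in parental H661 and above 85% for RING1B and MTF2 in every H661 hairpin library, while GATA4 stayed at or below 5.5% in every H1299 library.

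The Polycomb proteins lay at the canonical promoters of 5 of the 6 genes, all but GATA2, in the water arms of both hairpin lines. In the shDPPA4 line, RING1B was at GATA3, GATA4, GATA5, GATA6 and NKX2-1, 5 of 6 against 63.8% of all promoters. MTF2 was at the same 5 (61.5% of all promoters), and so was PCGF1 (25.7% of all promoters). Counts in the shDPPA2+4 line were again 5 of 6 for RING1B, MTF2 and PCGF1, with the same 5 genes, against 60.0%, 62.1% and 24.3% of all promoters. MACS2 peaks gave the same genes, except that PCGF1 had no peak at GATA5 in either line. The MACS2 shares of all promoters, shDPPA4 line before shDPPA2+4 line, were 58.7% and 57.3% for RING1B. They were 50.7% and 51.1% for MTF2, and 5.35% and 2.11% for PCGF1.

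At GATA4, GATA6 and NKX2-1 RING1B and MTF2 filled most of the window. RING1B covered 88.0%, 85.9% and 90.3% of these windows in the shDPPA4 line with water, against a median of 4.0% over all genes, and MTF2 covered 100%, 96.9% and 100%, against a median of 4.0%. RING1B values in the shDPPA2+4 line with water were 71.0%, 78.9% and 92.3%, against a median of 3.0%. The MTF2 domain at NKX2-1 was 38500 bp long in the shDPPA4 line, with 9846 reads and 413 IgG reads, and 47000 bp in the shDPPA2+4 line, with 13338 and 519. PCGF1 covered less, with 28.0%, 20.0% and 60.3% of the GATA4, GATA6 and NKX2-1 windows in the shDPPA4 line and 22.0%, 28.5% and 44% in the shDPPA2+4 line, against a median of 0% in each. At GATA3 RING1B and MTF2 lay almost wholly upstream. The RING1B domain ran from -10.6 kb to 0.412 kb of the TSS in the shDPPA4 line with water, and covered 52.1% of the window. At GATA5 the RING1B domain at the TSS was only 1.8 kb long in both lines, with 138 and 100 reads, and coverage was 12.0% and 9.0%.

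By MACS2 the RING1B peaks at these promoters were among the highest of their libraries. GATA6 had 60.2-fold (shDPPA4 line) and 74.4-fold (shDPPA2+4 line), at percentile 100 of promoters with a RING1B peak in each. GATA4 had 38.4-fold and 32.3-fold, GATA3 22.0-fold and 29.5-fold, GATA5 20.7-fold and 19.7-fold, and NKX2-1 16.8-fold and 18.1-fold, and all stood at percentile 95.4 or higher. NKX2-1 therefore had the broadest RING1B domain and the lowest RING1B fold of the 5. For MTF2 the highest fold was at GATA4, with 84.4-fold and 82.1-fold.

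EP300 was at 3 of these promoters in one line and 1 in the other. In the shDPPA4 line it was at GATA3, GATA5 and NKX2-1, 3 of 6 against 50.1% of all promoters. It was only at GATA5 in the shDPPA2+4 line, 1 of 6 against 52.5% of all promoters. The promoter domains of NKX2-1 and GATA5 held few reads. NKX2-1 had EP300 domains of 1700 bp (67 reads, 23 IgG reads) and 700 bp (38 and 7) in the shDPPA4 line, and GATA5 had domains of 1200 bp (36 and 5) in that line and 1400 bp (56 and 13) in the shDPPA2+4 line. By MACS2 the shDPPA4 line had 6.97-fold at GATA5, 5.03-fold at GATA3 and 4.96-fold at NKX2-1. These stood at percentiles 71.8, 41.0 and 38.8 of promoters with an EP300 peak. In the shDPPA2+4 line GATA5 had 2.76-fold, at percentile 2.5. EP300 covered 32.3% of the NKX2-1 window in the shDPPA4 line (percentile 99.9 of all genes) and 2.0% in the shDPPA2+4 line (percentile 46.3). With a fold limit of 4 in place of 2, the count in the shDPPA2+4 line was 0 of 6, against 32.9% of all promoters, and with no fold limit it was 3 of 6, against 54.9%, so that this count rests on the limit. Whether the lines differed was not tested, since each had 1 EP300 library.

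The order of the genes by DPPA4 and by RING1B was not the same. In the shDPPA4 line with water DPPA4n covered 92.5% of the GATA5 window, 86.8% at NKX2-1, 69.0% at GATA2, 53.5% at GATA3, 36.5% at GATA4 and 28.0% at GATA6. Among the 6 genes, GATA5 and GATA2 were thus high in DPPA4n and low in RING1B (12.0% and 17.5%), GATA4 and GATA6 the reverse, and NKX2-1 high in both. Against all genes none of these values was low. RING1B coverage stood at percentile 88.0 at GATA5 and 94.2 at GATA2, and DPPA4n coverage at percentile 85.2 at GATA4 and 79.0 at GATA6. The shDPPA2+4 line with water gave 71.5% at GATA5, 88.3% at NKX2-1, 65.5% at GATA2, 44% at GATA3, 31.0% at GATA4 and 21.0% at GATA6 for DPPA4n, so that only NKX2-1 and GATA5 changed places. DPPA4n was at 6 of 6 promoters in each line, against 71.7% and 67.7% of all promoters.

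**Figure D2:**
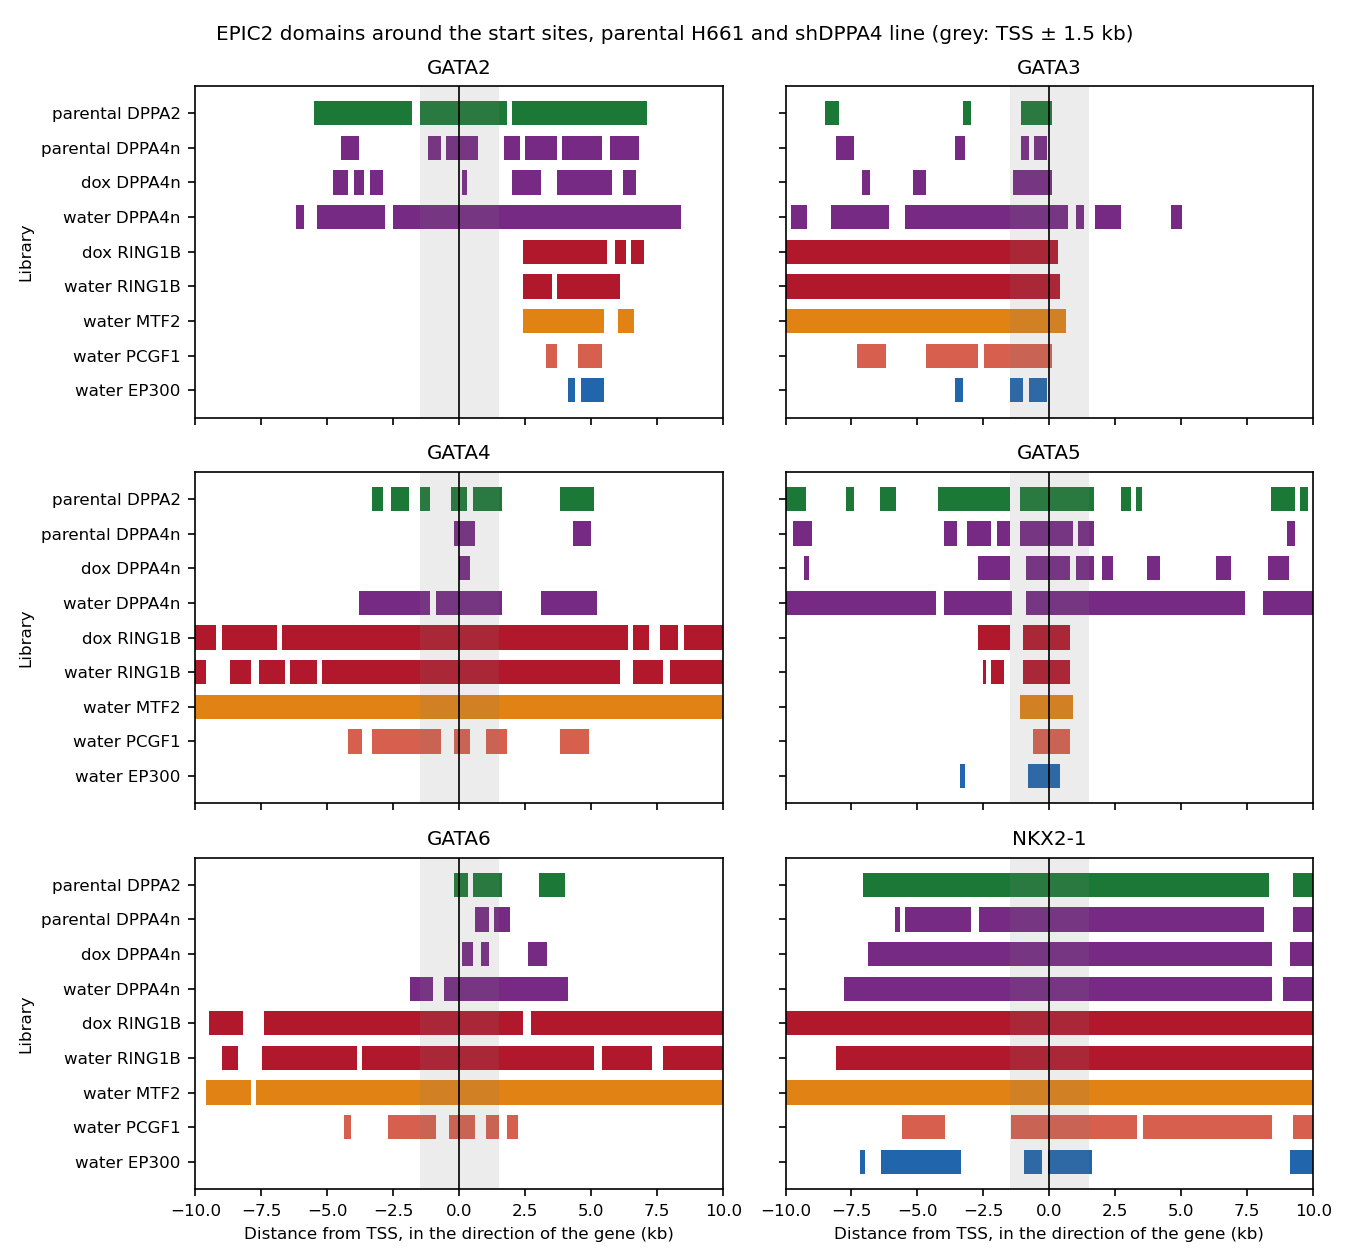
Kept EPIC2 domains (bars) in the 20 kb around each TSS, by distance in kb in the direction of the gene, for parental H661 (DPPA2, DPPA4n) and the shDPPA4 line (DPPA4n and RING1B with doxycycline and with water, then MTF2, PCGF1 and EP300 with water). The black line marks the TSS and the grey band the promoter. RING1B, MTF2, PCGF1 and EP300 at GATA2 all lie downstream of the grey band, at GATA3 RING1B and MTF2 end just past the TSS, and at GATA4, GATA6 and NKX2-1 RING1B and MTF2 run across most of the window.

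GATA2 is the gene where the choice of start site set the result. RefSeq gives GATA2 the downstream start shown above, 4671 bp into the gene, and the Polycomb and EP300 domains of GATA2 lay around it. Within 1500 bp of the downstream start, RING1B had 156 reads in 2 domains in the shDPPA4 line with water (9 IgG reads) and 109 reads in 1 domain in the shDPPA2+4 line with water (16 IgG reads). MTF2 had 135 and 97 reads there, PCGF1 36 and 62, and EP300 41 and 31. By MACS2 the RING1B peaks had 12.8-fold and 8.67-fold, MTF2 8.42-fold and 6.16-fold, and EP300 3.97-fold and 3.20-fold, while PCGF1 had a peak of 4.84-fold in the shDPPA4 line only. This start was looked at because the domains had been seen there, so that the overlap is a description. DPPA4n also peaked there, with 31.4-fold (shDPPA4 line) and 35.2-fold (shDPPA2+4 line) with water, against 11.4-fold and 9.80-fold at the canonical promoter.

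With doxycycline, DPPA4n domains at the GATA genes became short while those at NKX2-1 kept their extent. In the shDPPA4 line, DPPA4n coverage was 11.5% with doxycycline against 53.5% with water at GATA3, 2.0% against 36.5% at GATA4, 7.0% against 28.0% at GATA6, 30.5% against 92.5% at GATA5 and 27.0% against 69.0% at GATA2. At NKX2-1 it was 80.8% with doxycycline against 86.8% with water. The mean over all genes was 6.23% with doxycycline against 17.1% with water. The pairs of the shDPPA2+4 line were 13% against 44% at GATA3, 4.5% against 31.0% at GATA4, 39.5% against 71.5% at GATA5, 39.5% against 65.5% at GATA2 and 84.8% against 88.3% at NKX2-1, with means over all genes of 8.13% against 13.8%. At GATA6 coverage was 0% with doxycycline against 21.0% with water, and no DPPA4n region was left within 10 kb of its TSS.

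DPPA4n stayed at 6 of 6 promoters in the shDPPA4 line with doxycycline, against 56.8% of all promoters, and at 5 of 6 in the shDPPA2+4 line, all but GATA6, against 61.4% of all promoters. For GATA4 the remaining domains held 11 reads (shDPPA4 line) and 39 reads (shDPPA2+4 line), against 248 and 100 with water. For GATA6 the remaining domains of the shDPPA4 line held 20 reads with doxycycline against 339 with water, and the domains of the shDPPA2+4 line held 128 reads with water. Without the fold limit, GATA6 also carried a DPPA4n domain in the shDPPA2+4 line with doxycycline, so that its absence there rests on that limit.

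The density of DPPA4n reads inside the remaining domains changed less evenly. Density here is reads per kb over the domains that touch the promoter, divided by the size of the library relative to the IgG control that both arms share, and the change is the log2 of doxycycline over water with its 95% counting interval. It counts the whole of each touching domain, and so depends on where the caller ended it. At NKX2-1 the domain held 1961 reads over 15.3 kb with doxycycline and 6624 reads over 16.2 kb with water in the shDPPA4 line, which is a change of -0.84 (-0.91 to -0.77). In the shDPPA2+4 line it held 2580 reads over 14.2 kb with doxycycline and 2890 reads over 15.5 kb with water, a change of -0.98 (-1.06 to -0.91). NKX2-1 thus had lower scaled DPPA4n density in both lines over nearly the same length of DNA. Without the scaling the changes at NKX2-1 were -1.67 and -0.04, so that in the shDPPA2+4 line the lower value rests on the library sizes. GATA5 was also lower in both, at -0.54 (-0.81 to -0.27) for shDPPA4 and -1.51 (-1.78 to -1.25) for shDPPA2+4. GATA2 was at 0.12 (-0.83 to 0.93) in the shDPPA4 line, from 12 reads with doxycycline against 1070 with water, and at -2.09 (-2.55 to -1.65) in the shDPPA2+4 line, from 47 reads with doxycycline against 490 with water. In both lines a water domain that touched the GATA2 promoter also took in the stronger region of intron 1, and the doxycycline domains there did not. Over all domains within 10 kb the GATA2 changes were -0.29 and -0.70, so that the difference between the lines at the promoter rests on the domain ends. GATA3 and GATA4 had intervals that span 0 in both lines, and so did GATA6 in the shDPPA4 line. Their highest MACS2 folds were nevertheless lower with doxycycline. GATA3 had 6.15-fold against 21.3-fold with water (shDPPA4 line) and 3.07-fold against 15.3-fold (shDPPA2+4 line). GATA4 had 4.70-fold against 15.5-fold, and no peak against 8.58-fold. By MACS2 fold, 6 of 6 genes were lower by more than 0.5 (80.6% of all promoters), and 3 of the 4 with a value in the shDPPA2+4 line (61.4%).

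Lower by more than 0.5 were 2 of 6 genes in the shDPPA4 line, against 39.3% of 11319 promoters with a domain in both arms, and 3 of the 5 genes with a value in the shDPPA2+4 line, against 60.5% of 12178 promoters. None was higher by more than 0.5, against 5.69% and 1.51% of all promoters. The median change was -0.27 over the 6 genes and -0.37 over all promoters in the shDPPA4 line, and -0.98 over the 5 genes and -0.62 over all promoters in the shDPPA2+4 line. Relative to the median of all promoters, NKX2-1 was at -0.47 and -0.36. The scaling sets much of these shares. Without it, 90.5% of all promoters were lower and 0.459% higher in the shDPPA4 line, and 2.78% lower and 35.0% higher in the shDPPA2+4 line. Centred on the median of all promoters, the shares were 13.6% and 16.6%, and 11.8% and 15.1%. Unscaled, GATA3 and GATA4 were at 0.83 and 0.72 in the shDPPA2+4 line, whereas GATA2 and GATA5 stayed below -0.5.

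RING1B stayed at the same 5 promoters with doxycycline in both lines, against 65.8% (shDPPA4 line) and 48.6% (shDPPA2+4 line) of all promoters. GATA2 had no RING1B domain at its canonical promoter in any arm. Coverage was 51.6% with doxycycline against 52.1% with water at GATA3, 94.0% against 88.0% at GATA4, 15.0% against 12.0% at GATA5, 91.9% against 85.9% at GATA6 and 100% against 90.3% at NKX2-1 in the shDPPA4 line. The pairs of the shDPPA2+4 line were 51.6% against 51.5% at GATA3, 71.5% against 71.0% at GATA4, 7.0% against 9.0% at GATA5, 84.4% against 78.9% at GATA6 and 85.5% against 92.3% at NKX2-1. RING1B coverage was thus nearly the same in both arms at GATA3, and at the other genes it differed by less than DPPA4n coverage did, except at NKX2-1.

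RING1B density moved by less than 0.5 in the shDPPA4 line. GATA3 held 1779 reads over 10.8 kb with doxycycline and 1112 reads over 11.0 kb with water, a change of 0.35 (0.24 to 0.45). GATA6 was at 0.28 (0.17 to 0.39), GATA4 at 0.25 (0.13 to 0.36), NKX2-1 at -0.002 (-0.05 to 0.05) and GATA5 at -0.15 (-0.48 to 0.19). None of the 5 was lower or higher by more than 0.5, against 29.2% lower and 2.73% higher among 12226 promoters. All 5 lay above the median of all promoters, which was -0.28, by 0.14 at GATA5 to 0.63 at GATA3. In the shDPPA2+4 line every change was below 0, with -0.38 (-0.50 to -0.25) at GATA6, -0.43 (-0.58 to -0.29) at GATA3, -0.51 (-0.63 to -0.40) at NKX2-1, -0.75 (-0.89 to -0.60) at GATA4 and -1.14 (-1.64 to -0.66) at GATA5. Lower by more than 0.5 were 3 of 5, against 69.1% of 9241 promoters, and 0 of 5 were higher, against 0.822%. The median of all promoters there was -0.69, and relative to it the 5 genes lay between -0.45 at GATA5 and 0.31 at GATA6. At NKX2-1 the domains with doxycycline were 6400 bp and 25400 bp long and only the shorter one touched the promoter, whereas the domain with water was 23500 bp long.

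Scaling again bears on the RING1B changes. Without it, 3 of 5 genes were higher by more than 0.5 in the shDPPA4 line (8.71% of all promoters lower, 15.0% higher), and centred on the median likewise 3 of 5 (11.5% lower, 10.9% higher). In the shDPPA2+4 line 0 of 5 were past 0.5 in either direction by both ways (12.0% lower, 11.8% higher), and GATA3 (0.26), GATA6 (0.31) and NKX2-1 (0.18) turned above 0, while GATA4 (-0.05) and GATA5 (-0.45) stayed below it. The highest MACS2 fold at the promoters gave another picture, with GATA6 at 18.1-fold with doxycycline against 60.2-fold with water, and GATA4 at 12.8-fold against 38.4-fold, in the shDPPA4 line. There GATA5 had 12.7-fold with doxycycline against 20.7-fold with water, GATA3 19.7-fold against 22.0-fold and NKX2-1 16.2-fold against 16.8-fold. In the shDPPA2+4 line GATA6 had 14.9-fold with doxycycline against 74.4-fold with water, GATA3 5.71-fold against 29.5-fold, GATA4 11.8-fold against 32.3-fold, GATA5 3.37-fold against 19.7-fold and NKX2-1 7.42-fold against 18.1-fold. Past 0.5 lower on the log2 scale were 3 of 5 and 5 of 5, against 36.3% and 55.8% of all promoters with a peak in both arms, whose median changes were -0.26 and -0.61. In the shDPPA4 line the peak folds of GATA4 and GATA6 were therefore lower with doxycycline while their domain densities were not, and in the shDPPA2+4 line the peak folds were lower at all 5 genes, with scaled densities also below 0. The cause of this difference was not tested.

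**Figure D3:**
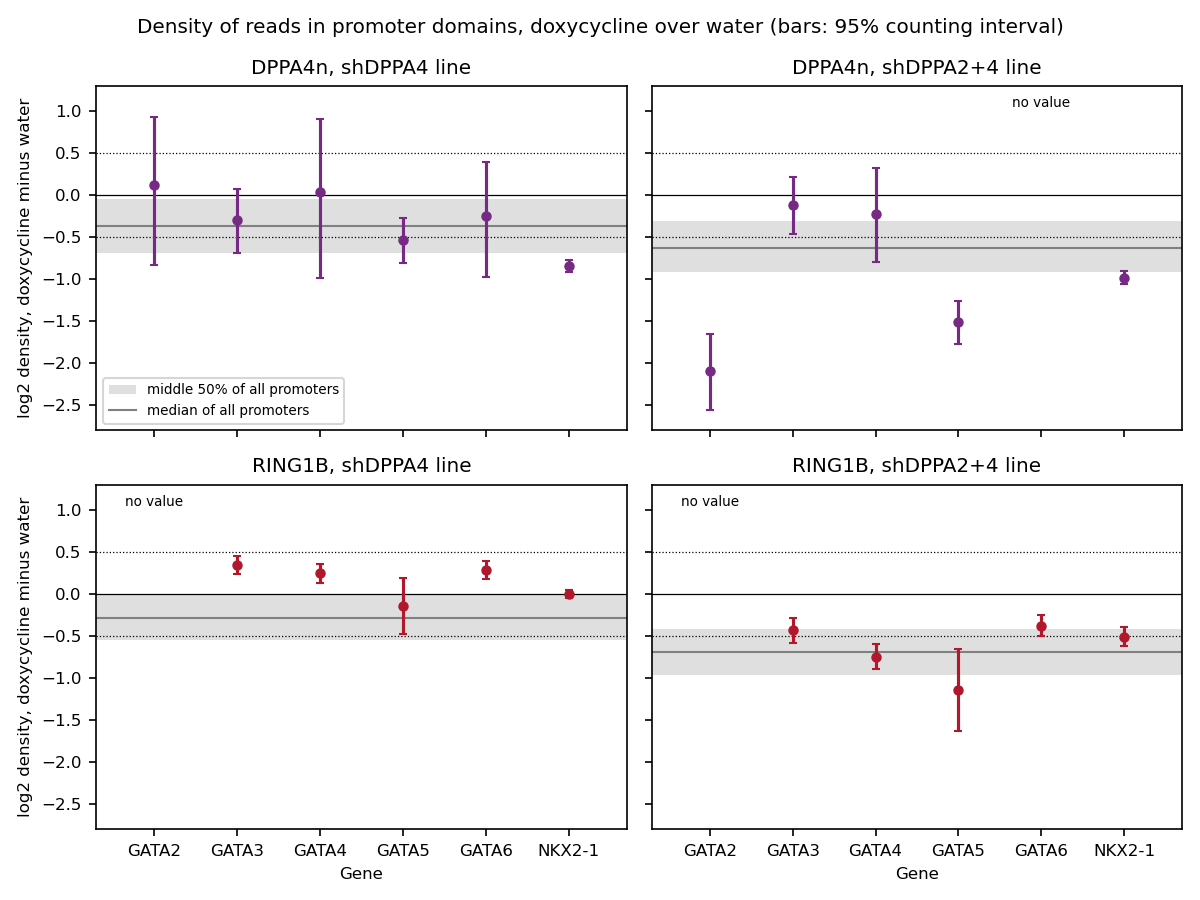
Change in read density with doxycycline over water (log2 scale) for DPPA4n (upper row) and RING1B (lower row) in the shDPPA4 line (left) and the shDPPA2+4 line (right). Points are single genes with 95% counting intervals, the grey line and band are the median and the middle 50% of all promoters with a domain in both arms, and dotted lines mark 0.5 in each direction. NKX2-1 DPPA4n lies at -0.84 and -0.98 with narrow intervals, whereas RING1B lies above the median of all promoters for 5 of 5 genes on the left and for GATA3, GATA6 and NKX2-1 on the right.

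In H1299 cells, where the proteins were introduced, the order of the genes was another one. GATA2 was covered most, with 37.7% ± 21.0 over DPPA2-directed libraries (DPPA2 and both Flag antibodies) and 41.4% ± 16.5 over DPPA4-directed libraries (DPPA4n, ab154642 and V5; SD, n = 6 each). GATA6 followed with 17.4% ± 10.6 and 20.2% ± 10.2. NKX2-1 had 9.75% ± 8.68 and 9.33% ± 7.68, GATA3 7.83% ± 7.43 and 12.7% ± 7.77, GATA5 3.67% ± 4.58 and 7.83% ± 10.5, and GATA4 0.667% ± 0.876 and 2.42% ± 2.67. The ranges of neighbouring genes in this order overlapped. GATA2 was at percentile 96.4 or higher among all genes in each of the 12 libraries, GATA6 at 84.0 or higher and GATA4 at 56.2 or lower, while NKX2-1 ranged from percentile 28.1 to 92.6.

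Promoter calls in H1299 turned on the replicate. In both replicates of the DPPA2 and DPPA4n antibodies, 2 of 6 promoters (GATA2 and GATA6) carried both proteins, against 30.6% of all promoters. Replicate 1 alone gave 6 of 6, against 61.4% of all promoters, and replicate 2 alone 2 of 6, against 30.7%. Over the 12 libraries and 6 antibodies, EPIC2 domains touched the GATA6 promoter in 12, GATA2 in 11, NKX2-1 in 10, GATA3 in 9, GATA5 in 7 and GATA4 in 6. Per library, they touched between 5.3% (Flag monoclonal replicate 2) and 65.2% (V5 replicate 1) of all promoters. By MACS2, GATA6 had a peak in 11 of 12 libraries, whereas GATA2, GATA3 and NKX2-1 had one in all 6 replicate 1 libraries and in 0 of the 6 replicate 2 libraries. The MACS2 shares of all promoters also fell, from 58.5% in replicate 1 to 8.41% in replicate 2 for DPPA2. They were 63.1% and 9.16% for DPPA4n, 52.5% and 24.7% for ab154642, and 54.9% and 7.31% for Flag superclonal. The lack of replicate 2 peaks at GATA2, GATA3 and NKX2-1 was therefore shared by most promoters. Of the 6 genes at their canonical starts, GATA6 had calls that depended least on the replicate and the caller. The 1 library without a MACS2 peak at GATA6 was Flag monoclonal replicate 2, which kept 12 MACS2 peaks and carried 0.0% of all promoters. Within 1500 bp of the downstream GATA2 start, chosen after domains were seen there, replicate 2 did have MACS2 peaks. They had 7.04-fold (DPPA2), 5.50-fold (DPPA4n), 9.68-fold (ab154642), 5.21-fold (Flag superclonal) and 9.53-fold (V5), with none for Flag monoclonal.

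DPPA2-directed and DPPA4-directed antibodies gave no detectable difference at any of the 6 genes. For GATA2 the coverage was 56.0% and 42.5% (DPPA2), 54.0% and 2.5% (Flag monoclonal) and 48.5% and 23% (Flag superclonal), against 56.0% and 11.5% (DPPA4n), 40.0% and 38.0% (ab154642) and 55.5% and 47.5% (V5), replicate 1 before replicate 2. The groups overlapped, and replicates of one antibody differed most for Flag monoclonal and DPPA4n. For GATA6 the values were 31.0% and 13% (DPPA2), 25.0% and 2.0% (Flag monoclonal) and 22.5% and 11.0% (Flag superclonal), against 27.5% and 4.5% (DPPA4n), 12.5% and 24.5% (ab154642) and 32.0% and 20.0% (V5), again overlapping. For NKX2-1 they were 21.5% and 3.5%, 18.0% and 0%, and 11.5% and 4.0%, against 17.0% and 0%, 9.5% and 3.0%, and 19.5% and 7.0%, in the same order.

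The difference of means was -3.67 percentage points for GATA2 (exact permutation test, two-sided, p = 0.764, adjusted p = 0.886), -4.92 for GATA3 (exact p = 0.273, adjusted p = 0.605), -1.75 for GATA4 (exact p = 0.182, adjusted p = 0.605), -4.17 for GATA5 (exact p = 0.539, adjusted p = 0.719), -2.75 for GATA6 (exact p = 0.662, adjusted p = 0.812) and 0.417 for NKX2-1 (exact p = 0.942, adjusted p = 1.0), DPPA2-directed minus DPPA4-directed. Over all genes with any coverage, 0 of 15150 passed after Benjamini-Hochberg adjustment (0.0%), and 715 had an unadjusted exact p under 0.05, of which 714 were lower and 1 higher in DPPA2-directed libraries. The median difference was -3.21 over the 6 genes and -2.50 over all genes. The smallest p that the 924 relabelings allow is 0.00216. The labels do not say whether replicates were separate cultures, so that these p-values measure the spread between libraries, which may be technical, and a p above the threshold does not show that the antibodies were alike. The test also treats all libraries as exchangeable, although libraries of the same antibody are not independent. The spread within a group therefore includes differences between its antibodies, and also between replicate numbers, which the test did not block. Mean coverage over all genes was 7.50% and 2.89% for DPPA2, but 5.54% and 6.30% for ab154642, replicate 1 before replicate 2. Without the Flag monoclonal replicate 2 library, a choice made after seeing the data, the difference was 3.38 for GATA2 and 0.333 for GATA6, both with the other sign, at adjusted p of 0.946 and 1.0 (exact permutation test). V5 replicate 1, with 28.0%, carried much of the DPPA4-directed mean of GATA5. Without that library, again a choice made after seeing the data, the mean was 3.80% ± 4.09 (SD, n = 5) and the difference for GATA5 was -0.13 (exact p = 0.974, adjusted p = 1.0).

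**Figure D4:**
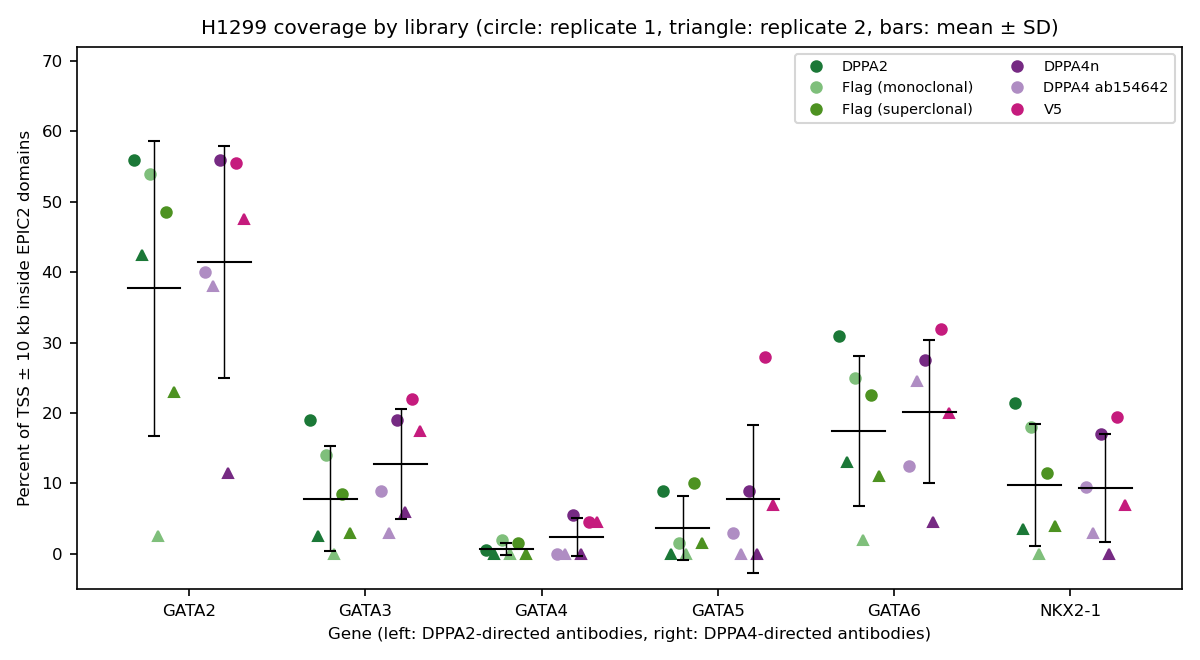
Percent of TSS ± 10 kb inside kept EPIC2 domains in the 12 H1299 libraries, for each gene, with DPPA2-directed antibodies on the left and DPPA4-directed antibodies on the right of each pair. Circles are replicate 1, triangles replicate 2, and bars give mean ± SD (n = 6). The groups overlap at every gene, GATA2 is highest in both groups and GATA4 is at 0% to 5.5%.

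Genes related to these factors were read from 3 lists. Among 10 GATA partners and other GATA-type zinc finger genes, 5 promoters carried DPPA2 and DPPA4n in parental H661 (GATAD2A, LDB1, TRPS1, ZFPM1 and ZFPM2). ZFPM1, which encodes the GATA cofactor FOG1, had 24.4-fold for DPPA2 and 30.5-fold for DPPA4n, and LDB1, an adaptor of LIM domain complexes, had 11.3-fold and 7.34-fold. RING1B was at 8 of the 10 in both hairpin lines with water, where it covered between 2.0% (GATAD1 and GATAD2A) and 20.5% (TAL1) of the window in the shDPPA4 line, with 15.5% at ZFPM1 and 4.50% at LDB1. With doxycycline TAL1, a blood transcription factor, had 37.5% in that line. The other genes of this list, GATA1, LMO2, TAL1, GATAD1 and GATAD2B, did not carry both proteins in parental H661.

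Among the 6 other NKX2 genes, 1 carried DPPA2 and DPPA4n in parental H661 (NKX2-3, with 9.62-fold and 8.25-fold), and with water RING1B was at 4 (shDPPA4 line) and 6 (shDPPA2+4 line). RING1B covered 67.5% of the NKX2-2 window and 66.5% of the NKX2-4 window in the shDPPA4 line with water, against 90.3% at NKX2-1. Among 14 partners and targets of NKX2-1, 2 carried both proteins (ABCA3, a lipid transporter of surfactant storage, with 7.93-fold for DPPA2 and 5.77-fold for DPPA4n, and FOXA1, a pioneer factor, with 4.83-fold and 6.98-fold), and RING1B was at 3 and 4. In H1299, both replicates gave 6 of 10, 0 of 6 and 2 of 14 in these lists, against 30.6% of all promoters. Replicate 1 alone gave 7 of 10, 4 of 6 and 3 of 14, against 61.4%. Replicate 2 alone gave 6 of 10, 0 of 6 and 2 of 14, against 30.7%. All of these shares are to be read against the shares of all promoters given above for the same libraries.

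Coverage profiles were compared across the 30 libraries. Among the 6 genes, GATA4 and GATA6 ran most alike (Pearson r = 0.94), followed by GATA3 with GATA4 (0.89) and with GATA6 (0.86). GATA2 ran with none of these (-0.02, -0.28 and -0.18) and most with GATA5 (0.58). NKX2-1 ran with members of both, at 0.74 with GATA3, 0.74 with GATA4, 0.56 with GATA6 and 0.52 with GATA5, and not with GATA2 (-0.04). Outside the 6 genes, the genes whose profile was most like GATA4 were HAND1 (0.99), RNF220 (0.99) and ADCYAP1 (0.99), those most like GATA6 were NEUROG2 (0.98), TWIST2 (0.98) and PPP4R4 (0.97), and those most like GATA3 were EN2 (0.97), LHX1 (0.96) and AATF (0.96). For GATA2 they were AMH (0.95), JSRP1 (0.94) and AJM1 (0.94), for GATA5 TCAP (0.98), FAM98C (0.98) and PNMT (0.98), and for NKX2-1 SLC16A14 (0.95), SP8 (0.95) and NPAS3 (0.94). These are correlations over libraries that share cell lines, antibodies and IgG controls, given as a description. Only neighbours of the 6 genes themselves were left out, so listed genes that lie near each other can share domains. AMH and JSRP1 are both on chromosome 19. LHX1 and AATF, and likewise TCAP and PNMT, are on chromosome 17, so such pairs need not be separate matches.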

How the data were processed

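CUT&RUN libraries of H661 and H1299 cells were analysed from lists of enriched regions. According to the submitters' processing notes, the authors trimmed reads with Trim Galore 0.6.6, aligned them to hg38 (GRCh38) with BWA 0.7.13 and used SAMtools 1.9, Picard 2.6.0, deepTools 3.5.0 and MACS2 2.27.1. The authors called regions per library, without pooling, with EPIC2 and MACS2. The deposited EPIC2 lists give, per domain, unnormalized counts of reads from the antibody and from IgG, with a p-value and FDR, a log2 fold over IgG and a score that is 100 times that fold. The deposited MACS2 lists give a fold enrichment over local IgG background as a ratio, −log10 p-values and q-values, and a score made from the q-value.

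Regions with FDR below 0.05 and log2 fold above 1 (MACS2 fold above 2) on autosomes and chromosome X were kept, as in the study, whose blacklist was not applied here. MACS2 served for parental H661 and EPIC2 for the other lines. Start sites were canonical transcripts of GENCODE 44. Library size relative to IgG was read from the fold and counts of each domain with IgG reads. Doxycycline and water arms had identical IgG counts in all domains with identical ends, so that they shared a control. The parental DPPA2 library had another IgG control than the parental DPPA4 libraries. In domains without IgG reads the fold has no measured denominator and is not given. Depth of whole libraries cannot be read from region lists. H1299 coverage was tested by an exact two-sided permutation test per gene over all genes, with Benjamini-Hochberg adjustment (Python 3.11.15, numpy 2.4.6, scipy 1.17.1), tested on simulated data. Named genes were the 6 genes, those of 3 lists (30 genes), and for each of the 6 the 3 genes with the highest correlation of coverage, leaving out neighbours within 20 kb. The genes and lists were chosen with earlier results of these data known. Alternatives varied caller, window, fold limit, scaling, replicates and antibody. The 8 IgG libraries were used only through the counts in the lists.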

Additional observations from a re-analysis of the deposited data

Results flagged for a closer look

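In H1299, V5 replicate 1 covered 28.0% of the GATA5 window, far above the other 5 DPPA4-directed libraries, of which the next highest had 9.0%. Chance flags about 1 in 20 such groups, and 12 groups of 6 libraries were examined. Without that library the DPPA2-directed minus DPPA4-directed difference for GATA5 was -0.13 percentage points, in place of -4.17.

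RING1B density with doxycycline over water moved in opposite directions in the 2 hairpin lines at 3 genes. On the log2 scale GATA3 was at 0.35 (shDPPA4) and -0.43 (shDPPA2+4), GATA4 at 0.25 and -0.75, and GATA6 at 0.28 and -0.38. The counting intervals exclude 0 in each case, but each arm had 1 library, and the difference between the lines was not tested. The median of all promoters also differed between the lines (-0.28 and -0.69), and relative to it GATA3 was at 0.63 and 0.26 and GATA6 at 0.56 and 0.31, both above it in each line, while GATA4 was at 0.53 and -0.05.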

How the results depend on the processing

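Most counts of promoters that carry a protein kept to within 1.5 times under other callers, windows and fold limits. The exceptions follow. With the central-region DPPA4 antibody, 0 genes carried both proteins in parental H661 (5.36% of all promoters), in place of 6. In H1299 the count of 2 was 1 with MACS2 (GATA6, against 3.46% of all promoters), 1 with TSS ± 500 bp (GATA6, against 27.7%), 3 with TSS ± 10 kb (36.6%) and 3 without a fold limit (34.1%), and between 2 (30.7%) and 6 (61.4%) when either replicate was left out. EP300 in the shDPPA2+4 line was at 4 genes with TSS ± 10 kb (59.4% of all promoters), 0 with a log2 fold above 2 (32.9%), 3 without a fold limit (54.9%) and 2 with GATA2 at its downstream start, which was chosen after the domains were seen, in place of 1. RING1B in that line with doxycycline was at 3 with a log2 fold above 2 (26.4%), in place of 5.

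Counts of genes past 0.5 in density were set by the scaling. For DPPA4n in the shDPPA4 line, 6 genes were lower without scaling (90.5% of all promoters), 0 when centred on the median of all promoters (13.6%), 1 with domains within 10 kb (23.7%) and 6 by MACS2 fold (80.6%), in place of 2. In the shDPPA2+4 line, 2 were higher without scaling (35.0%) and 1 when centred (15.1%), in place of 0. For RING1B in the shDPPA4 line, 3 were higher without scaling (15.0%) and 3 when centred (10.9%), in place of 0, and 3 were lower by MACS2 fold (36.3%). In the shDPPA2+4 line, 0 were lower without scaling (12.0%), 0 when centred (12.0%) and 5 by MACS2 fold (55.8%), in place of 3. The RING1B median over the genes there, which is the value of NKX2-1, turned to 0.18 without scaling and to 0.18 when centred. Apart from the scaling, by construction, the causes were not tested.

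The H1299 test called 0 genes under each alternative, and without replicate 1 or replicate 2 it could not reach p below 0.1. With replicate number as a block (labels permuted within replicate number), 0 of the 6 genes and 0 of all genes were called, with 2490 unadjusted exact p under 0.05 in place of 715. Same-numbered libraries across the 2 proteins had deviations from their group means that correlated above 0.1 in 15 of 18 pairs (median r over genes 0.49). Libraries with other numbers did so in 3 of 18 (median r -0.46), so that the numbers pair many libraries but not every one.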
